A study of Homo sapiens and Mus musculus with 12 samples.

Results

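The 10 genes described here, Gzma, Gzmb, Cd3g, Cd3e, Cd8a, Il2rb, Klrd1, Ccl5, Nkg7 and Prf1, are markers of cytotoxic T cells and natural killer (NK) cells, read out in mouse colon. They were matched by exact symbol among the 17383 genes of the mouse table, and all 10 were found. The study compared colon of Zfp280c knock-out mice with colon of wild-type mice, both C57BL/6J and 12 weeks old, with 3 libraries of polyadenylated RNA per genotype. Zfp280c encodes a zinc finger protein, the mouse counterpart of human ZNF280C. The labels do not give how the knock-out was made, the sex, which stretch or layers of the colon were taken, or whether each library came from a separate mouse, so the p-values measure the spread between these libraries. A second experiment of the series, in RKO human colon cancer cells, was not used here.

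Cytotoxic lymphocytes kill target cells by releasing granules that hold perforin, which opens pores in the target membrane, and granzymes, proteases that enter through them. T cells find their targets through the T cell receptor, which signals through the CD3 chains, and CD8 binds class I major histocompatibility complex (MHC) molecules beside it. In the gut many such cells lie between the epithelial cells as intraepithelial lymphocytes, and CD94, the product of Klrd1, pairs with NKG2 receptors on NK cells and some T cells.

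Values are FPKM, by definition fragments scaled by transcript length and library size. How lengths and shared reads were handled is not given, so comparisons of levels between genes are approximate. Depth is unknown, since the table holds no counts. The targeted gene Zfp280c had 0.09, 0.09 and 0.22 FPKM in libraries 1, 2 and 3 of the knock-out, against 2.48, 2.25 and 3.17 FPKM in wild-type 1, 2 and 3, without overlap between the genotypes. Its log2 fold change, knock-out minus wild-type on the log2(FPKM + 1) scale used throughout, was -1.67 ± 0.14 (SE), with an adjusted p of 0.123 in limma and an exact two-sided permutation p of 0.1, the smallest that 3 against 3 libraries allow. A gene was tested where its mean over the 6 libraries was at least 1 FPKM, and called where its p, adjusted by Benjamini and Hochberg's method over the 11366 genes that qualified, was under 0.05.

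Before the cytotoxic genes are described, 1 feature of the libraries bears on every value. Wild-type 2 stood with the knock-out libraries on the first principal component, at -17.7 against -25.4 to -18.0, while wild-type 1 and 3 stood at 28.9 and 51.4. That component held 77.7% of the variance. The same split appeared in HOX genes, whose expression marks position along the colon. Hoxb6 was at 18.24, 8.91 and 17.63 FPKM in the knock-out libraries and at 18.23 FPKM in wild-type 2, against 0.65 and 0.2 FPKM in wild-type 1 and 3. Hoxb13, a gene of the most distal gut, was at 2.23 to 18.89 FPKM in the knock-out libraries, 14.72 FPKM in wild-type 2, and 336.32 and 506.98 FPKM in wild-type 1 and 3. A position score, which subtracts the mean log2 level of 5 distal HOX genes from that of the proximal genes Hoxb6, Hoxb7 and Hoxb8, was 1.28 to 2.68 in the knock-out libraries, 1.88 in wild-type 2, -2.43 in wild-type 1 and -4.42 in wild-type 3. Zfp280c itself followed the genotype label in wild-type 2. The cytotoxic genes are therefore given with all libraries, without wild-type 2, and with the position score in the model.

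The cytotoxic genes followed that split. In 10 of 10 genes wild-type 2 lay within the range of the knock-out libraries and wild-type 1 and 3 lay below it. Among the 9 that were tested, all but Prf1, 9 showed this pattern, beside 11.2% of all tested genes. As a share of the knock-out mean, wild-type 2 stood between 76.4% (Il2rb) and 119% (Prf1) with a median of 90.0%. The share in wild-type 1 was between 16.3% (Gzmb) and 60.2% (Klrd1) with a median of 41.2%, and in wild-type 3 between 9.0% (Gzmb) and 52.5% (Il2rb) with a median of 20.6%. Summed over the 10 genes, the level was 97.73, 56.69 and 79.41 FPKM in knock-out 1, 2 and 3 and 26.63, 71.03 and 14.06 FPKM in wild-type 1, 2 and 3. The genotypes did not separate in any of the 10 genes (0 of 10, and 0 of the 9 tested), whereas all knock-out libraries lay above all wild-type ones in 7.13% of tested genes. In RNA from tissue of many cell types, fewer cells of a type and less RNA per cell cannot be told apart.

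**Figure D1:**
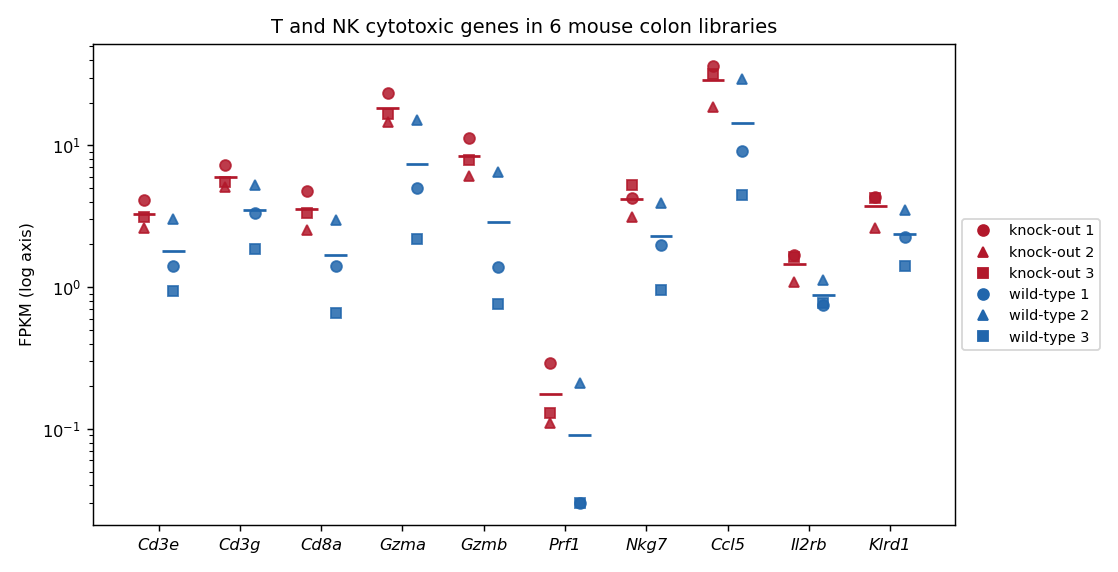
FPKM (log axis) of the 10 cytotoxic genes in each library, with knock-out in red, wild-type in blue, 1 symbol per replicate number and a bar at each group mean. Wild-type 2 (blue triangles) lies among the knock-out values in 10 of 10 genes, and wild-type 1 and 3 lie below them.

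With all 6 libraries, limma called 0 of the 9 cytotoxic genes tested and 0 of the 11366 genes in all (0%), of which 1420 were at an unadjusted p under 0.05. Of the 9 genes, 5 were at an unadjusted p under 0.05 and all in the direction of higher values in knock-out colon, where 6.02% of all tested genes were. The log2 fold change was positive in 9 of 9, with a median of 0.75, beside a median of -0.02 over all genes tested. Ratios of the group means ran from 1.57 (Klrd1) to 2.94 (Gzmb). With wild-type 2 left out, 7 of the 9 genes passed as higher in knock-out colon, beside 9.21% of all tested genes. The ratio of means was then between 1.93 (Il2rb) and 7.89 (Gzmb). With the position score in the model, 0 of 9 passed, 7 of 9 were positive and the median was 0.07. In that model the contrast of genotypes rests largely on wild-type 2, the 1 wild-type library whose score overlaps those of the knock-out libraries. How much of the difference goes with genotype and how much with position cannot be told apart beyond these values.

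**Figure D2:**
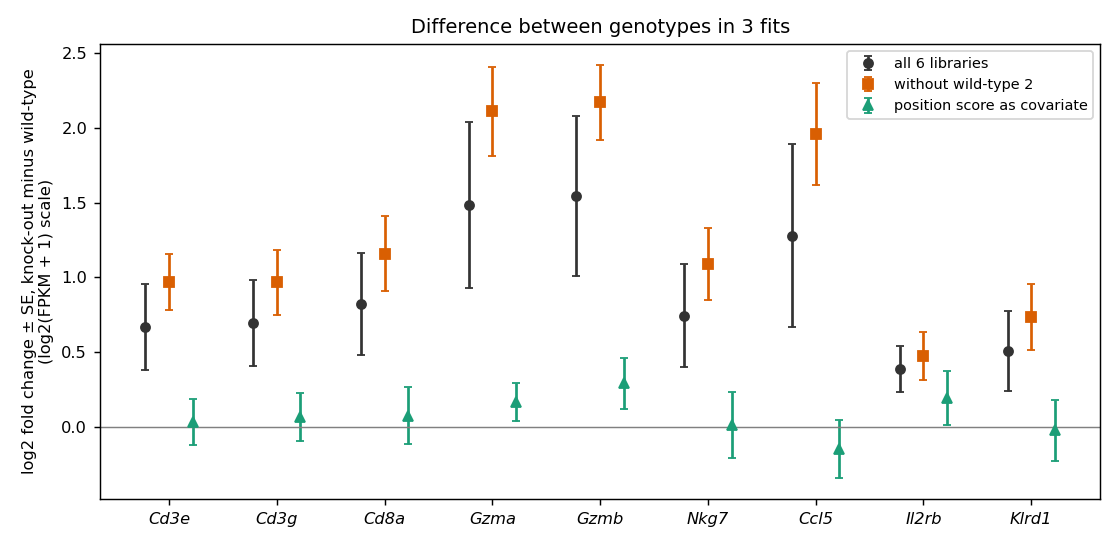
Log2 fold change ± SE, knock-out minus wild-type on the log2(FPKM + 1) scale, of the 9 tested cytotoxic genes in 3 models. The values without wild-type 2 (orange squares) lie above those of all 6 libraries (black circles), and the values with the position score as a covariate (green triangles) lie between -0.15 and 0.30.

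Cd3e and Cd3g encode the epsilon and gamma chains of CD3, which carry the signal of the T cell receptor and are found in T cells of every subset. Cd3e was at 4.11, 2.59 and 3.14 FPKM in the knock-out libraries and at 1.41, 3.03 and 0.94 FPKM in the wild-type ones. The means were 3.28 ± 0.770 and 1.79 ± 1.10 FPKM (SD, n = 3 each). Wild-type 2 exceeded knock-out 2, and wild-type 3 was the lowest of the 6 libraries in both genes. Cd3g stood at 7.3, 5.11 and 5.48 FPKM against 3.34, 5.22 and 1.87 FPKM, with means of 5.96 ± 1.17 and 3.48 ± 1.68 FPKM. The log2 fold changes were 0.67 ± 0.29 for Cd3e and 0.69 ± 0.29 for Cd3g, both at an adjusted p of 0.396 in limma. Both chains passed without wild-type 2, at 0.97 ± 0.19 (Cd3e, adjusted p = 0.0186) and 0.97 ± 0.22 (Cd3g, adjusted p = 0.0292). With the position score the estimates were 0.04 and 0.07.

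Cd8a encodes the alpha chain of CD8, the coreceptor that binds class I MHC. It was at 4.78, 2.54 and 3.32 FPKM in the knock-out libraries and at 1.4, 2.98 and 0.66 FPKM in the wild-type ones. The group means of 3.55 ± 1.14 and 1.68 ± 1.19 FPKM differed by 0.83 ± 0.34 on the log2 scale (adjusted p = 0.396 in limma). Knock-out 2, the lowest of its group, lay below wild-type 2. The difference was 1.16 ± 0.25 without wild-type 2 (adjusted p = 0.0265) and 0.08 with the position score.

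The granzymes had the largest ratios of group means among the cytotoxic genes. Gzma, which encodes the tryptase granzyme A, was at 23.36, 14.61 and 16.69 FPKM in the knock-out libraries and at 4.99, 15.06 and 2.2 FPKM in the wild-type ones, with means of 18.2 ± 4.57 and 7.42 ± 6.76 FPKM. Gzmb, which encodes granzyme B, a protease that cleaves and activates caspases in the target cell, was at 11.31, 6.12 and 7.9 FPKM against 1.38, 6.49 and 0.76 FPKM. Its means were 8.44 ± 2.64 and 2.88 ± 3.14 FPKM. In both granzymes wild-type 2 lay just above knock-out 2, while wild-type 3 held the least. The log2 fold change was 1.48 ± 0.55 for Gzma and 1.55 ± 0.53 for Gzmb, and the adjusted p in limma was 0.396 for each. With wild-type 2 removed these became 2.11 ± 0.30 (Gzma, adjusted p = 0.00735) and 2.17 ± 0.25 (Gzmb, adjusted p = 0.00423), and with the position score 0.17 and 0.30. Gzmb has close relatives in the genome, and how the authors counted reads shared between them is not given in the sources used here. Gzmc, 1 such relative, did not exceed 0.3 FPKM in any library.

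Prf1, which encodes perforin, was the lowest of the 10 genes. It was at 0.29, 0.11 and 0.13 FPKM in the knock-out libraries and at 0.03, 0.21 and 0.03 FPKM in the wild-type ones, and its mean of 0.133 FPKM put it under the minimum for the test. Wild-type 2 was the second highest of the 6 libraries. The exact two-sided permutation test of the means gave a p of 0.5. Nkg7, which encodes a membrane protein of cytotoxic granules, was at 4.22, 3.14 and 5.26 FPKM against 1.98, 3.94 and 0.95 FPKM. It was the 1 cytotoxic gene whose highest knock-out library was replicate 3, where the other 9 had replicate 1. Its log2 fold change was 0.75 ± 0.34 (adjusted p = 0.404 in limma), 1.09 ± 0.24 without wild-type 2 (adjusted p = 0.0283) and 0.02 with the position score.

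Ccl5, a chemokine that draws T cells and is made by memory T cells and NK cells, had the highest level. It was at 36.33, 18.77 and 31.65 FPKM in the knock-out libraries and at 9.11, 29.49 and 4.48 FPKM in the wild-type ones, with means of 28.9 ± 9.09 and 14.4 ± 13.3 FPKM. Wild-type 2 lay above the mean of the knock-out libraries and well above knock-out 2. The log2 fold change of 1.28 ± 0.61 (adjusted p = 0.407 in limma) was 1.96 ± 0.34 without wild-type 2 (adjusted p = 0.0133) and -0.15 ± 0.19 with the position score.

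The receptors differed least between the genotypes. Il2rb, the beta chain shared by the IL-2 and IL-15 receptors, was at 1.69, 1.09 and 1.62 FPKM in the knock-out libraries and at 0.75, 1.12 and 0.77 FPKM in the wild-type ones, the 1 cytotoxic gene whose lowest library was wild-type 1. Klrd1 was at 4.34, 2.61 and 4.22 FPKM against 2.24, 3.49 and 1.4 FPKM. These 2 were also the tested genes that did not pass without wild-type 2. Il2rb differed by 0.39 ± 0.15 on the log2 scale with all libraries (adjusted p = 0.396 in limma) and by 0.48 ± 0.16 without wild-type 2 (adjusted p = 0.0918). Klrd1 differed by 0.51 ± 0.26 (adjusted p = 0.431) and by 0.74 ± 0.22 (adjusted p = 0.0697), and by -0.02 with the position score. The exact permutation p of the difference in mean FPKM was 0.2 in each of the 9 tested genes.

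By mean FPKM in knock-out colon the order was Ccl5, Gzma, Gzmb, Cd3g, Nkg7, Klrd1, Cd8a, Cd3e, Il2rb and Prf1. Neighbours in that order overlapped over the 3 libraries except at 3 steps, from Gzma to Gzmb, from Cd3e to Il2rb and from Il2rb to Prf1. In wild-type colon the order changed between neighbours only, with Cd3g before Gzmb, Klrd1 before Nkg7 and Cd3e before Cd8a. There the ranges of all neighbours overlapped apart from Il2rb and Prf1. Replicate 2 was the lowest knock-out library in 10 of 10 genes.

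The gap between the wild-type libraries was not of 1 size in all cytotoxic genes. Ratios between genes within a library, chosen after their values were seen, show this. The ratio of Gzmb to Cd3g was 1.55, 1.20 and 1.44 in the knock-out libraries, 1.24 in wild-type 2, and 0.413 and 0.406 in wild-type 1 and 3. Gzma to Cd3g was 2.86 to 3.20 in the knock-out libraries, 2.89 in wild-type 2, and 1.49 and 1.18 in wild-type 1 and 3. In wild-type 1 and 3, granzyme RNA was thus low even relative to CD3 RNA. The exact permutation p between genotypes was 0.2 for each of these 2 ratios. Cd8a to Cd3e varied less, at 0.981 to 1.16 in the knock-out libraries and 0.993, 0.983 and 0.702 in wild-type 1, 2 and 3 (exact permutation p = 0.3). Klrd1 to Cd3e was at 1.06, 1.01 and 1.34 against 1.59, 1.15 and 1.49, so the 2 libraries lowest in Cd3e had the most Klrd1 relative to Cd3e (exact permutation p = 0.2). Il2rb to Cd3e was at 0.411, 0.421 and 0.516 in the knock-out libraries, 0.370 in wild-type 2, and 0.532 and 0.819 in wild-type 1 and 3, again highest in the libraries lowest in Cd3e (exact permutation p = 0.6). Cd3g to Cd3e was itself highest there, at 2.37 and 1.99, beside 1.75 to 1.97 in the knock-out libraries and 1.72 in wild-type 2. The order of Klrd1 and Il2rb relative to Cd3e therefore need not hold relative to Cd3g. Nkg7 to Cd3e gave an exact permutation p of 0.9.

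Against Ptprc, which encodes the leukocyte surface protein CD45, the same libraries stood apart. Ptprc itself was at 5.22, 2.96 and 5.29 FPKM in the knock-out libraries and at 5.89, 3.84 and 3.22 FPKM in the wild-type ones. The ratio of Cd3e to Ptprc was 0.594 to 0.875 in the knock-out libraries, 0.789 in wild-type 2, and 0.239 and 0.292 in wild-type 1 and 3 (exact permutation p = 0.3). With every gene expressed relative to the mean log2 of 9 pan-leukocyte genes, limma called 3 of the 9 cytotoxic genes higher in knock-out colon, beside 1.19% of all tested genes. They were Gzma (1.60 ± 0.41, adjusted p = 0.00741), Gzmb (1.67 ± 0.41, adjusted p = 0.00429) and Ccl5 (1.40 ± 0.41, adjusted p = 0.0422). In that scaling limma estimated 1 common spread for genes of like level, so these p-values lean on other genes, and the median over all genes tested moved from -0.02 to 0.10.

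**Figure D3:**
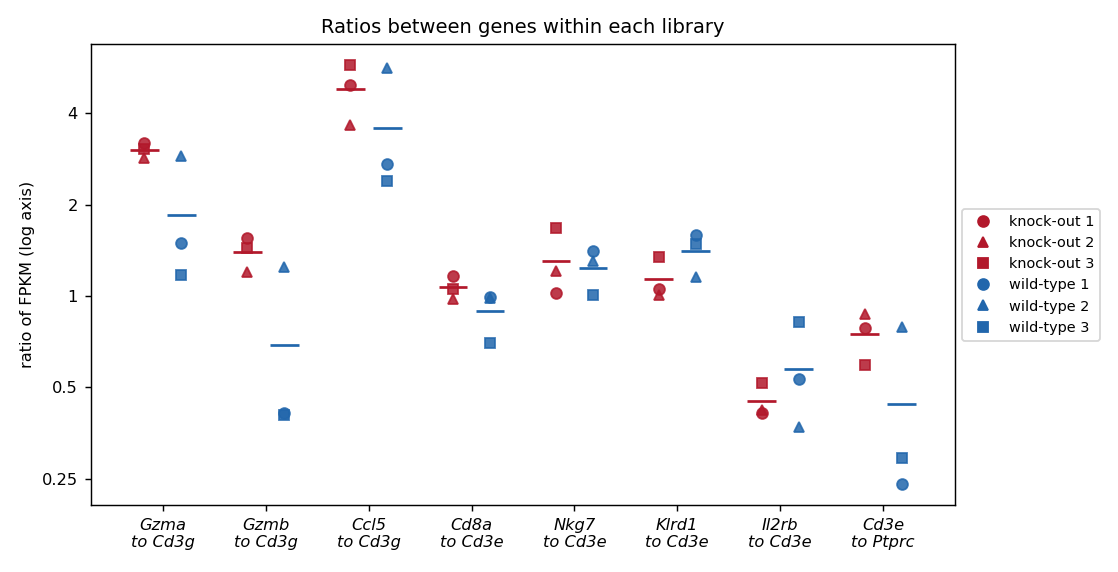
Ratio of FPKM between pairs of genes within each library (log axis), with knock-out in red, wild-type in blue, 1 symbol per replicate number and a bar at each group mean. The ratios of Gzma and Gzmb to Cd3g and of Cd3e to Ptprc are lowest in wild-type 1 and 3 (blue circles and squares), while those of Klrd1 and Il2rb to Cd3e are highest there.

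Other genes of the T cell receptor and its signalling had smaller differences. Of 23 measured, 8 reached the minimum mean, 0 passed with all libraries, and 8 of 8 had a positive log2 fold change with a median of 0.33. Lck, the kinase that starts receptor signalling, was at 3.88, 2.61 and 3.64 FPKM in the knock-out libraries and at 1.88, 3.33 and 0.84 FPKM in the wild-type ones. It was the 1 of the 8 to show the pattern of the cytotoxic genes, a share near the 11.2% of all tested genes. It was also the 1 of the 8 to pass without wild-type 2 (0.91, adjusted p = 0.0416 in limma), a share near the 9.21% of all tested genes. Cd247, the CD3 zeta chain, was at 2.01, 1.21 and 2.14 FPKM against 0.7, 1.16 and 1.25 FPKM, a log2 fold change of 0.45 with its lowest value in wild-type 1. For Zap70 and Cd3d the log2 fold changes were 0.34 and 0.39. The summed level of the 23 genes was 15.44 to 27.76 FPKM in the knock-out libraries, 20.74 FPKM in wild-type 2, and 17.24 and 8.53 FPKM in wild-type 1 and 3, so wild-type 1 lay inside the knock-out range here.

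Among genes of T cell subsets, 4 of 15 measured were tested, 0 passed and 2 were positive. Cd8b1, the CD8 beta chain of conventional CD8 T cells, was at 3.11, 1.43 and 1.77 FPKM in the knock-out libraries and at 1.1, 2.18 and 0.28 FPKM in the wild-type ones (log2 fold change 0.56). Cd4 did not exceed 0.64 FPKM and Foxp3, the regulator of regulatory T cells, did not exceed 0.07 FPKM in any library. RNA of helper and regulatory T cells was thus near the floor of the table, below Cd8a. Bcl11b and Tcf7 differed by -0.12 and 0.11.

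Genes of intraepithelial lymphocytes were mixed. Of 10 measured, 4 were tested, 0 passed with all libraries and 3 were positive. Of the 4, Cd7 and Itgae showed the pattern of the cytotoxic genes, beside 11.2% of all tested genes. Cd7, a surface protein of intraepithelial T and innate-like lymphocytes, was at 10.68, 6.45 and 8.51 FPKM in the knock-out libraries and at 4.87, 6.87 and 2.65 FPKM in the wild-type ones. Its log2 fold change was 0.77 with all libraries and 1.02 without wild-type 2 (adjusted p = 0.0417 in limma), the 1 of the 4 to pass as higher there, beside the 9.21% of all tested genes. Itgae, the CD103 integrin chain that binds E-cadherin on epithelial cells, was at 2.0, 1.28 and 1.91 FPKM against 0.9, 1.61 and 0.7 FPKM. Ahr was at 3.07, 2.94 and 3.12 FPKM in the knock-out libraries, below the 3.48, 3.25 and 3.34 FPKM of the wild-type ones (-0.11), and Itgb7 differed by 0.26.

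Defining genes of NK cells were at or near 0. Of 23 measured, 3 reached the minimum mean, and 8 were listed at 0 in at least 1 library. Ncr1, which encodes NKp46, did not exceed 0.3 FPKM, Klrb1c, which encodes NK1.1, did not exceed 0.32 FPKM, and Eomes, a transcription factor of NK cells, did not exceed 0.3 FPKM. The summed level of the 23 was 17.3 to 27.3 FPKM in the knock-out libraries and 17.81 to 22.42 FPKM in the wild-type ones. Itga2, the integrin chain CD49b that is also found outside NK cells, made up part of that sum at 8.3, 6.1 and 8.85 FPKM against 2.23, 4.94 and 1.45 FPKM. It was the 1 NK list gene of the 3 tested with all knock-out libraries above all wild-type ones, beside 7.13% of all tested genes. Its log2 fold change was 1.26 (adjusted p = 0.396 in limma), and 1.62 without wild-type 2 (adjusted p = 0.00434). Tyrobp, the DAP12 adaptor that myeloid cells also use, differed by -0.35 and Hcst, the DAP10 adaptor, by 0.18.

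Not every gene of the killing machinery shared the pattern. Of 22 further granule and effector genes, 10 were tested, 0 passed, and 7 were positive with a median of 0.15. The pattern of the cytotoxic genes appeared in 4 of the 10, beside 11.2% of all tested genes. Tnfsf10, which encodes the death ligand TRAIL, was at 8.76, 4.65 and 7.19 FPKM in the knock-out libraries and at 3.79, 4.82 and 2.52 FPKM in the wild-type ones (log2 fold change 0.73). Ctsw, a protease of cytotoxic lymphocytes, was at 4.79, 2.94 and 4.2 FPKM against 2.5, 3.45 and 1.17 FPKM (0.60), and the chemokine gene Xcl1 differed by 0.53. Rab27a, which brings granules to the membrane and is active in many secretory cells, went the other way at 11.04, 7.43 and 10.97 FPKM against 13.67, 13.02 and 21.1 FPKM (-0.63). Ifng, the interferon of activated T and NK cells, did not exceed 0.14 FPKM. Gzmk, a granzyme of memory CD8 T cells and named after its values were seen, was at 1.49, 0.29 and 1.33 FPKM against 0.21, 1.42 and 0.07 FPKM, where wild-type 2 again matched the knock-out libraries.

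In the cytokine axis of Il2rb, 0 of the tested genes showed the pattern of the cytotoxic genes, beside 11.2% of all tested genes. Il7 showed the split between libraries in the opposite direction. Of 13 genes of IL-2 and IL-15 signalling, 10 were tested, 0 passed with all libraries, 5 were positive and the median was -0.03. Il15, the cytokine that maintains intraepithelial and NK lymphocytes (named after its values were seen), was at 15.02, 12.34 and 10.83 FPKM in the knock-out libraries and at 8.29, 11.78 and 14.4 FPKM in the wild-type ones. Its highest and lowest wild-type values thus fell on the 2 libraries that were both low in cytotoxic genes. For Il15ra, Stat5b and Il2rg the log2 fold changes were 0.20, 0.10 and -0.21. Il7, a cytokine of T cell survival, was at 2.29, 2.82 and 2.55 FPKM in the knock-out libraries and 2.68 FPKM in wild-type 2, against 4.28 and 4.62 FPKM in wild-type 1 and 3 (-0.43). It was the 1 of the 10 to pass without wild-type 2, as lower in knock-out colon (-0.62, adjusted p = 0.0192 in limma), a share near the 7.19% of all tested genes.

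Chemokine genes that act on T cells were mixed. Of 15 measured, 7 were tested, 0 passed with all libraries and 4 were positive. Cxcl9, an interferon-induced chemokine for activated T cells, was at 2.24, 1.13 and 1.59 FPKM in the knock-out libraries and at 0.89, 0.94 and 0.45 FPKM in the wild-type ones (log2 fold change 0.58, adjusted p = 0.396 in limma). It was the 1 of the 7 with all knock-out libraries above all wild-type ones, beside 7.13% of all tested genes. The epithelial chemokine genes Ccl20 and Ccl28 differed by -0.80 and -0.67 and Ccl25 by 0.44. Without wild-type 2, Ccl20 (-1.29, adjusted p = 0.00502) and Ccl28 (-1.09, adjusted p = 0.0221) passed as lower in knock-out colon, 2 of the 7 tested beside 7.19% of all tested genes.

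Genes whose products cytotoxic lymphocytes read on epithelial cells were mostly low in wild-type 1 and 3 as well, but wild-type 2 lay below all knock-out libraries in most of them. The list held class I MHC genes, ligands of NKG2D and butyrophilin-like genes, whose products support intraepithelial gamma-delta T cells. Of 14 measured, 11 were tested, 0 passed with all libraries, and 10 were positive with a median of 0.51. In 7 of the 11 all knock-out libraries lay above all wild-type ones, beside 7.13% of all tested genes. In H2-D1 that gap was slight, at 724.62 FPKM in wild-type 2 against 725.18 FPKM in knock-out 1. H2-T23 alone showed the pattern of the cytotoxic genes, beside 11.2% of all tested genes. Without wild-type 2, 9 passed as higher and 1 as lower, where 9.21% and 7.19% of all tested genes did. H2-T3, which encodes the TL antigen that binds the CD8 alpha homodimer, was at 52.59, 47.45 and 50.25 FPKM in the knock-out libraries and at 10.98, 40.25 and 1.26 FPKM in the wild-type ones. Its log2 fold change of 2.30 ± 0.95 (adjusted p = 0.396 in limma) was 3.29 without wild-type 2 (adjusted p = 0.0163) and 0.16 with the position score. Wild-type 2 was nearest to the knock-out libraries in H2-T3 but below all 3 of them.

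In Btnl6 and Btnl4, wild-type 2 stood with wild-type 1 and below all knock-out libraries. Btnl6 was at 155.43, 164.54 and 166.54 FPKM in the knock-out libraries and at 126.83, 125.19 and 91.95 FPKM in the wild-type ones, and Btnl4 at 67.47, 69.74 and 73.68 FPKM against 57.92, 56.5 and 45.81 FPKM. Wild-type 3 had the least of both. The log2 fold changes were 0.51 ± 0.14 for Btnl6 and 0.40 ± 0.11 for Btnl4, both at an adjusted p of 0.396 in limma, and 0.32 and 0.27 with the position score. Raet1e, a ligand gene of NKG2D, was at 2.32, 2.74 and 1.55 FPKM against 6.74, 2.95 and 9.63 FPKM, the 1 tested gene of the list with a negative log2 fold change (-1.12). B2m, the light chain of class I MHC (named after its values were seen), was at 1299.88, 1113.47 and 1288.76 FPKM against 872.6, 1069.75 and 467.96 FPKM.

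**Figure D4:**
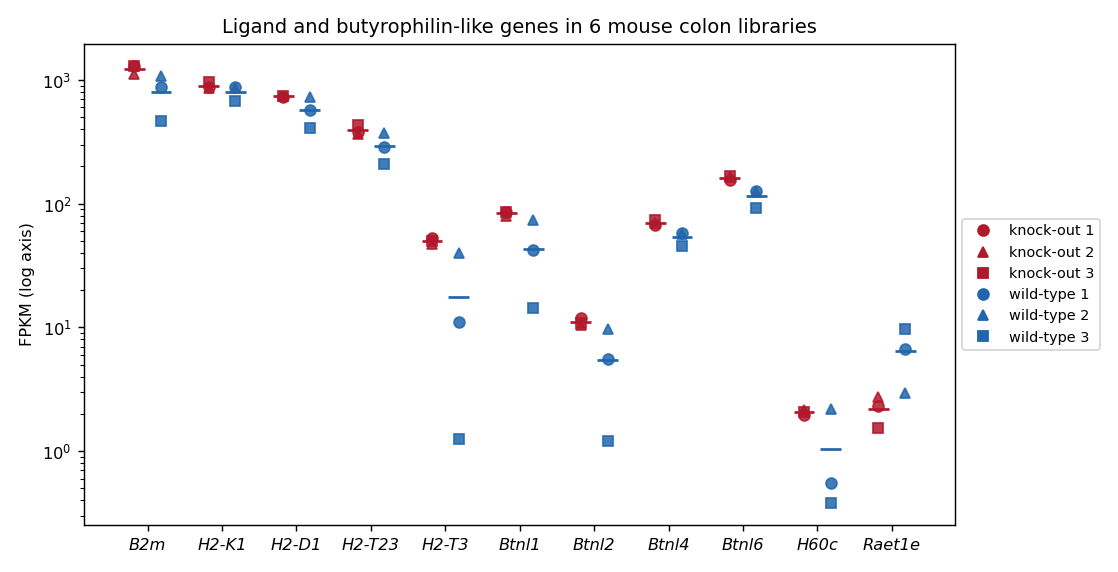
FPKM (log axis) of class I MHC, butyrophilin-like and NKG2D ligand genes in each library, with knock-out in red, wild-type in blue, 1 symbol per replicate number and a bar at each group mean. H2-T3, Btnl1, Btnl2 and H60c are lowest in wild-type 1 and 3, wild-type 2 lies with wild-type 1 in Btnl4 and Btnl6, and Raet1e is highest in wild-type 1 and 3.

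Among markers of other cell types, the sums of pan-leukocyte, B cell, plasma cell and macrophage genes had a different profile from the cytotoxic genes. Those of dendritic cell, epithelial, smooth muscle and adipocyte genes were lowest in wild-type 1 and 3. The 10 pan-leukocyte genes summed to 62.75, 40.86 and 72.09 FPKM in the knock-out libraries and to 97.4, 48.93 and 49.9 FPKM in wild-type 1, 2 and 3, so wild-type 1, which was low in cytotoxic RNA, held the most of this RNA. Of 9 tested, 2 were positive and the median was -0.12, with Cd53 at -0.32, Lcp1 at -0.31, Cd48 at -0.16 and Cd37 at -0.21. The 11 B cell genes summed to 4.49 to 16.08 FPKM in the knock-out libraries and to 35.77, 7.23 and 17.31 FPKM in wild-type 1, 2 and 3, and 0 of 5 tested were positive. Their log2 fold changes included -0.82 for Cd79b, -0.91 for Cd79a and -0.36 for Cd22. Plasma cell genes summed to 266.4 to 319.32 FPKM against 280.24 to 394.76 FPKM and macrophage genes to 48.45 to 68.89 FPKM against 57.43 to 83.84 FPKM, with median log2 fold changes of 0.01 and -0.30. In the plasma cell list Prdm1 and Sdc1, which epithelial cells also express, differed by 0.57 and 0.45 and Jchain and Mzb1 by -0.77 and -0.54. In the macrophage list Cd14 was at -0.53, C1qa at -0.50, Mrc1 at -0.30 and Mertk at 0.13.

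Defining genes of rarer leukocytes were near 0. Of 8 genes of cross-presenting dendritic cells 2 were tested, Tlr3 (0.49) and Irf8 (0.34), and the defining genes Xcr1 and Clec9a did not exceed 0.36 and 0.19 FPKM. The 8 summed to 36.14 to 48.41 FPKM in the knock-out libraries and to 30.39, 36.95 and 30.29 FPKM in wild-type 1, 2 and 3, the pattern of the cytotoxic genes, and most of that sum was Tlr3 and Irf8. Of 10 mast cell genes Kit was tested (0.31), and 5 were listed at 0 in at least 1 library. Lymphoid follicle genes summed to 15.51 to 23.63 FPKM in the knock-out libraries and to 51.12, 16.18 and 43.45 FPKM in wild-type 1, 2 and 3. There 0 of 3 tested were positive (Ccl21a -0.76, Cxcl13 -0.65, Ltb -0.25).

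Epithelial markers matched the labelled tissue, with Epcam at 917.25 to 1060.72 FPKM in the 6 libraries. Of 10 epithelial genes 8 were positive with a median of 0.08 (Vil1 0.30, Krt20 0.65, Cdx2 0.94, Cdh1 -0.14), and their sums of 11356 to 12387 FPKM in the knock-out libraries compared with 10308, 12275 and 9773 FPKM in wild-type 1, 2 and 3. The 8 smooth muscle genes were all positive with a median of 0.46 (Acta2 0.53, Des 0.56, Cnn1 0.70, Smtn 0.34) and summed to 475.78 to 758 FPKM against 365.96, 594.27 and 414.85 FPKM. Of 6 adipocyte genes 3 were tested with a median of 1.92 (Adipoq 2.10, Lipe 0.50, Cidec 1.92), and the sums were 32.21 to 41.2 FPKM against 8.24, 26.08 and 4.92 FPKM. In 7 of the 8 smooth muscle genes wild-type 2 lay within the knock-out range and wild-type 1 and 3 below it. That is the pattern of the cytotoxic genes, seen in 11.2% of all tested genes. What part any of these cell types or the position of the samples had in the cytotoxic gene levels was not tested beyond the model with the position score.

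**Figure D5:**
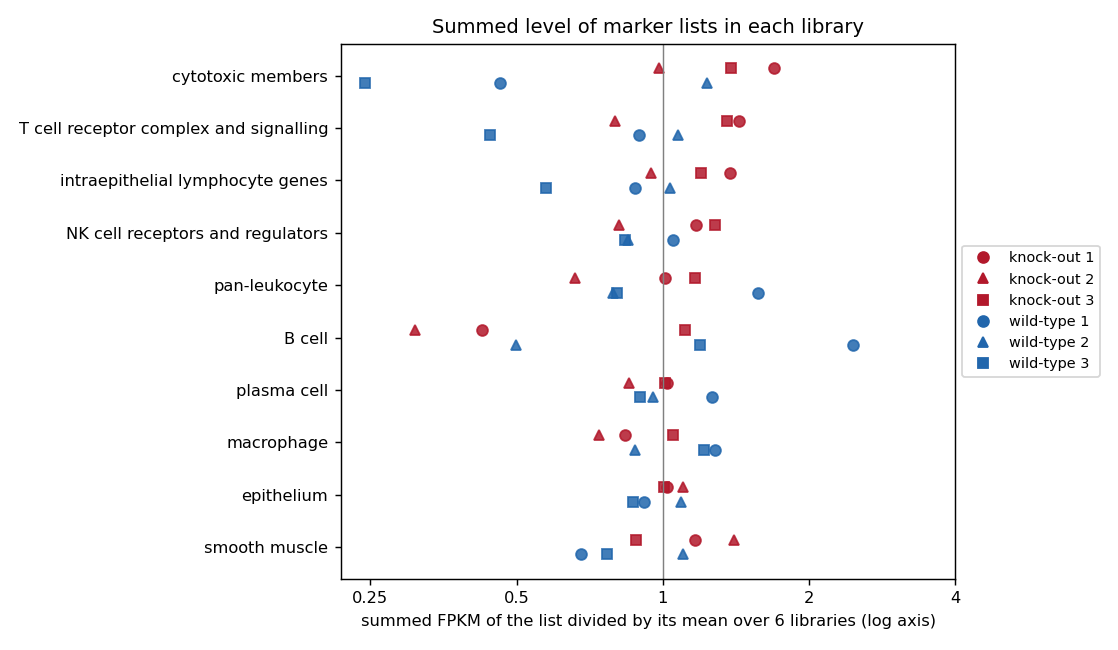
Summed FPKM of each marker list in each library divided by the mean of the 6 libraries (log axis), with knock-out in red, wild-type in blue and 1 symbol per replicate number. Cytotoxic RNA is lowest in wild-type 1 and 3 (blue circles and squares), whereas pan-leukocyte and B cell RNA is highest in wild-type 1.

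Many genes with other roles had the same profile over the 6 libraries as the cytotoxic genes. Likeness was measured as the root mean square difference between a gene's standardised log2(FPKM + 1) values and the mean standardised profile of the 9 tested cytotoxic genes, over 6 libraries. The cytotoxic genes themselves stood at 0.0999 (Cd3e) to 0.361 (Il2rb) from their mean. The 5 nearest other genes were nearer than any of them, with Prlr at 0.0446, Dhx58 at 0.0597, Dapk1 at 0.0618, Trafd1 at 0.0634 and Grina at 0.0783. In all, 877 other tested genes (7.72%) were no farther than Il2rb, and the median of the other genes was 1.27. Prlr, the prolactin receptor, was at 3.87, 2.17 and 3.43 FPKM in the knock-out libraries and at 1.07, 2.68 and 0.55 FPKM in the wild-type ones. Dhx58, an interferon-induced RNA sensor of the RIG-I family, was at 23.3, 16.61 and 19.93 FPKM against 11.21, 18.66 and 8.86 FPKM. In both, wild-type 2 lay inside the knock-out range and wild-type 1 and 3 below it.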

How the data were processed

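The deposited mouse table gives, per the file headers, FPKM with 2 decimals for 17383 genes in 6 colon libraries. Of tools, edgeR, HTSeq, HISAT and Bowtie2 appear in the submitters' processing notes, without versions, roles or order, and no mouse build does, so no genomic position or sequence is given. Read depth is not given, and no counting interval was worked out. In genes with values from 0.1 to 0.6 FPKM, 19.3% of values were whole multiples of the gene's lowest within 0.1, beside 20% for an even spread. That check cannot show steps where the lowest value already holds several reads. Lower values did step in some genes, as in Ccl3 at 0, 0 and 0.07 FPKM in the knock-out libraries and 0.28, 0.21 and 0.07 FPKM in the wild-type ones. The libraries summed to 491901 to 507206 FPKM. Values were taken as log2(FPKM + 1), genes with a mean of at least 1 FPKM were kept, and the genotypes were set against each other in limma 3.58.1 (R 4.3.3) by its moderated test, with the prior variance following mean level and Benjamini-Hochberg adjustment across all genes tested. This scale understates changes of low genes. The procedure was tested on simulated data. Single values were also compared by exact two-sided permutation over 20 regroupings. Where a ± is printed, it is the SD of 3 libraries for group means and the SE for log2 fold changes. The alternatives were other pseudocounts, minimum means, scalings and variance estimates, the replicate number as a block, a HOX position score as a covariate, and removal of each library in turn. Named genes were the 10 cytotoxic genes, Zfp280c, Hoxb6 and Hoxb13, up to 4 tested members of each other list with the lowest unadjusted p, and the 5 genes of most similar profile; other names were chosen after their values were seen. In 2 lists, 1 gene that this rule names is not reported here. The cytotoxic genes and all lists were chosen with earlier results of these data known. No per-sample column was left unused.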

Additional observations from a re-analysis of the deposited data

How the results depend on the processing

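Over 18 alternatives, 157 fits of single cytotoxic genes gave 155 positive and 2 negative log2 fold changes, and 10 passed the threshold. The 2 negative ones came with the position score as a covariate, for Klrd1 (-0.0197) and Ccl5 (-0.146), neither of which had passed with all libraries; the cause was not tested. Removing 1 library in turn gave between 0 and 7 called cytotoxic genes and between 0 and 1861 called genes in all, and all of these calls came without wild-type 2. Zfp280c stood between -1.75 and -1.57 over those removals. Relative to pan-leukocyte genes, where limma used 1 common spread for genes of like level, 3 cytotoxic genes and 195 genes in all were called. Zfp280c passed there at -1.55 ± 0.41, a smaller change with a larger SE than the -1.67 ± 0.14 of the unscaled model. What part the common spread had in these calls was not tested. The median log2 fold change of the cytotoxic genes was 0.88 with a pseudocount of 0.5, 1.03 with 0.1, and 0.44 without wild-type 3. Prf1 has a value in the model without a minimum mean only. A replicate block, with the replicate number as a term, called 0 cytotoxic genes and 0 genes in all (1242 at an unadjusted p under 0.05 in limma), with Gzma at 1.48 (adjusted p = 0.453). Deviations of same-numbered libraries from their genotype mean correlated at -0.453, -0.137 and 0.151. Deviations from a mean of 3 libraries are not independent, so these values cannot decide whether the numbers pair the samples. The depth is not given, and the counting error of low genes such as Prf1 was not worked out.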

Other observations

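A marker of another cell type stood out in the same libraries. Ly6g, a surface protein best known from neutrophils, was at 188.77 and 268.34 FPKM in wild-type 1 and 3, against 8.55 FPKM in wild-type 2 and 3.2, 8.75 and 6.28 FPKM in the knock-out libraries. The neutrophil granule genes S100a8 and S100a9 did not exceed 0.15 and 0.11 FPKM in any library, and Cxcr2, a chemokine receptor of neutrophils, was at 2.4 to 3.11 FPKM in all 6. Of 6 neutrophil genes 2 were tested, Ly6g (log2 fold change -3.56, adjusted p = 0.396 in limma, and -5.08 without wild-type 2, adjusted p = 0.0013) and Cxcr2 (0.02). Ly6g was thus highest in the libraries where Gzma and Ccl5 were lowest, with S100a8 and S100a9 at or near 0 there.

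The proportion of the 2 granzymes also differed between libraries. Gzma to Gzmb was 2.07, 2.39 and 2.11 in the knock-out libraries, 2.32 in wild-type 2, and 3.62 and 2.89 in wild-type 1 and 3 (exact permutation p = 0.2). Granzyme B RNA was therefore lower than granzyme A RNA by a larger factor in the libraries low in both.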
